A study of Mus musculus with 13 samples.

Results

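The genes described here are 10 heat shock protein genes of the cytosol and the mitochondrion. They are the cytosolic HSP70 genes Hspa1a, Hspa1b and Hspa8, the HSP110 gene Hsph1, the J-domain co-chaperone gene Dnajb1, the HSP90 genes Hsp90aa1 and Hsp90ab1, the small heat shock protein gene Hspb1 and the mitochondrial chaperonin pair Hspd1 and Hspe1. They were found by matching the Ensembl identifiers of the deposited table to these symbols, which gave 10 of its 22656 rows. The 10 genes passed the filter on low values, as did 12403 genes in all. In the study, B16F10-TR-shApoe mouse melanoma cells were injected into a tail vein of mice in which the human APOE2 or APOE3 allele had been knocked in. Lungs were digested with collagenase on day 15, and dye-low, CD45-, GFP+ tumour cells were sorted for RNA. There were 8 libraries from APOE2 hosts and 5 from APOE3 hosts, and the series' design text counts as many mice. Every library came from the same cell line, whose name marks a hairpin against Apoe, so the groups differ in the genotype of the host and not of the tumour cells. Libraries were made with a kit that reads the 3′ ends of transcripts, so counts were not divided by gene length and levels are compared between libraries, not between genes.

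Heat shock proteins are molecular chaperones that bind unfolded or partly folded proteins and help them fold, keep them soluble or pass them on for degradation. When misfolded protein builds up, the transcription factor HSF1 is released from chaperones, forms trimers and binds heat shock elements, which are runs of alternating GAA and TTC units, upstream of the inducible members. Some members, such as Hspa8 and Hsp90ab1, are made at high levels in unstressed cells, and others, such as Hspa1a and Hspa1b, are low until cells are stressed.

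Heat shock elements were looked for in the RefSeq promoter windows of the GRCm38.p6 build, from 250 bases before each start, because they are the DNA sequence that the inducible members share. The windows held 7 of the 10 genes. Hspa8, Hsp90aa1 and Hsp90ab1 were not in the table. An element of 2 units was searched on both strands as GAANNTTC or TTCNNGAA. It was found in 6 of the 7 genes, all but Dnajb1, beside 14.5% of 27025 genes in the table (12.8% of 32851 windows). An element of 3 units, GAANNTTCNNGAA or TTCNNGAANNTTC, contains the shorter one. It was found for 2 of the 7, Hspd1 and Hspe1, beside 0.514% of genes in the table (0.466% of windows). The sites are printed 5′ to 3′ on the strand of the gene, with the element in capitals.
Hspd1, chr1:55088053-55088082, minus strand: ggggccTTCCGGAAGGTTCTAGAAcggacc
Hspe1, chr1:55088053-55088082, plus strand: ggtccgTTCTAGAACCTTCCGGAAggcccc
Hsph1, chr5:149636351-149636380, minus strand: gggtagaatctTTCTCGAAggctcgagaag
Hspb1, chr5:135887791-135887820, plus strand: cttcaacaagaGAAGTTTCcagatgggggc
Hspb1, chr5:135887811-135887840, plus strand: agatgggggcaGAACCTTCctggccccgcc
Among the genes counted, Hspa1a and Hspa1b are near copies and Hspd1 and Hspe1 share a site, so the counts are not of independent sequences. The Hspd1 and Hspe1 lines are the same site read from opposite strands. It holds 4 units in 18 bases, begins 89 bases before the RefSeq start of Hspe1, and begins 144 bases before the inner of the RefSeq starts of Hspd1. From the outer start of Hspd1 it lies 167 bases downstream. The element of Hsph1 begins 33 bases before its outer start, and those of Hspb1 begin 117 and 97 bases before its start. A match describes the letters of the window and does not show that a factor bound there.

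The upstream windows of Hspa1a and Hspa1b are printed whole, because these genes are near copies of each other. Hspa1a lies at chr17:34969190-34972156 and Hspa1b at chr17:34956436-34959238, both on the minus strand of the GRCm38 annotation, with 9951 bases between them. Their windows cover the 250 bases before each start, at chr17:34972157-34972406 and chr17:34959239-34959488. They differ at 3 of the 250 positions, and the capitals mark the same 2-unit element, which begins 104 bases before each start.
Hspa1a: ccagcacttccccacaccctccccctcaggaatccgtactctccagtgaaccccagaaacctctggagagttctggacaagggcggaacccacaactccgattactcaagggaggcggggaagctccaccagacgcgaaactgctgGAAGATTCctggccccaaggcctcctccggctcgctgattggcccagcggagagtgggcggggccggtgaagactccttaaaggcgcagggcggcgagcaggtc
Hspa1b: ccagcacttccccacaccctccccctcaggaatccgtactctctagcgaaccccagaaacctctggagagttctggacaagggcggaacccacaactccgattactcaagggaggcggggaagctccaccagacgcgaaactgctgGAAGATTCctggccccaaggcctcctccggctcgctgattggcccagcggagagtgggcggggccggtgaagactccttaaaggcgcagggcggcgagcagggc
Along their transcripts, 93.6% of 2701 aligned bases were identical. The ends differ: of the 451 stretches of 50 bases in the last 500 bases of either transcript, 0 occurred in the other. How reads that fit more than one gene were counted is not given in the sources used here, so the split of reads between these genes is uncertain.

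The libraries held 7080308 to 13039989 reads assigned to genes, and 14026 to 17018 genes with at least 1 read. Mouse Apoe, the target of the hairpin, was at 1730 ± 375 normalised counts in APOE2 hosts (SD, n = 8) and 1845 ± 441 in APOE3 hosts (n = 5), with a limma adjusted p of 0.852. No library without the hairpin was analysed, so these values do not check the knockdown. The melanocyte markers were expressed, and 10 of 10 passed the filter on low values. Of these, 0 passed the test between host genotypes, which does not bear on cell identity. Their summed normalised counts ran from 375334 to 538655 in APOE2 hosts and from 303884 to 414965 in APOE3 hosts. Dct was the largest part of these sums, at 232500 ± 53540 and 150400 ± 38890 normalised counts (log2 difference 0.64, limma adjusted p = 0.126). The median log2 difference of the 10 was 0.039. Markers of other lung cells were also present, and 11 of them were lower in APOE2 hosts at an adjusted p under 0.05. These were 6 of 11 tested epithelial markers (Sftpc, Sftpb, Sftpa1, Sftpd, Napsa and Slc34a2), 2 of 14 endothelial (Calcrl and Esam), 1 of 7 fibroblast and smooth muscle (Acta2), 2 of 8 leukocyte (Cd74 and Lyz2) and 0 of 3 erythroid markers. The epithelial sum ran from 658 to 4096 in APOE2 hosts and from 3444 to 21325 in APOE3 hosts. Of the 11 tested epithelial markers, 10 had a log2 difference below 0 and 1 above. The latter, Scgb3a2, was at 0 in every APOE3 library and up to 179 normalised counts in APOE2 hosts (limma adjusted p = 0.608). Endothelial sums were 793 to 1175 against 1106 to 2260, and fibroblast sums 120 to 467 against 269 to 1934. Leukocyte sums were 508 to 2554 against 2123 to 12359. By group mean, most of these sums was Lyz2, which alveolar type 2 cells also express, at 1162 ± 694 and 5288 ± 3944 normalised counts. Its lowest APOE2 value was 186, in a library whose sum was at least 508, so it was not most of every sum. S100a8 (log2 difference -0.04), Fcer1g (-0.18) and S100a9 (0.50) did not pass. Erythroid sums were 40.6 to 189 against 23.2 to 219.8. No listed marker in the table was at 0 in every library. APOE3 replicates 2 and 3 were richest in Gm42418, a noncoding transcript that overlaps ribosomal RNA sequence, with 3.74% and 3.03% of reads against 0.662% to 2.17% in the other libraries.

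Between the host genotypes, none of the 10 heat shock genes passed the test over all genes. The test was limma on log2(normalised count + 1), with p-values adjusted over 12403 genes by the Benjamini-Hochberg method. By this test 98 genes, or 0.79%, had an adjusted p under 0.05, of which 51 were higher and 47 lower in APOE2 hosts. At an unadjusted p under 0.05, 2 of the 10 were higher in APOE2 hosts, the mitochondrial pair Hspd1 and Hspe1. That share has to be read against 14.2% of all genes in either direction and 7.51% of all genes in the higher direction. With edgeR on the recovered reads 0 of the 10 passed, and with DESeq2 1 did, Hspe1. The median log2 difference of the 10 genes was 0.041, with 6 above 0 and 4 below, beside a median of 0.00037 over all genes tested. With both libraries richest in Gm42418 left out, 1 gene in all and 0 of the 10 passed. In bulk RNA, fewer cells of a type and less RNA per cell cannot be told apart.

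**Figure D1:**
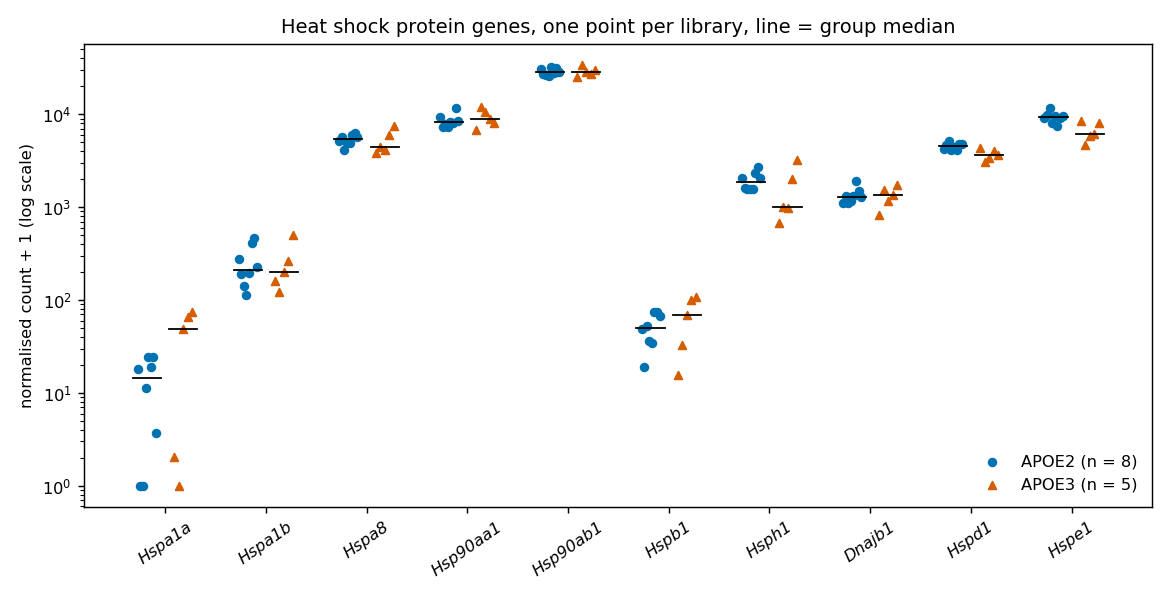
Normalised count plus 1 on a log axis for each heat shock gene, with 1 point per library, APOE2 hosts as circles (n = 8), APOE3 hosts as triangles (n = 5) and a line at each group's median. Hspe1 and Hspd1 have most APOE2 points above the APOE3 points, while Hspa1a spreads from 0 to 72.9 normalised counts.

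Hspe1 encodes HSP10, the lid of the mitochondrial folding chamber, and had the smallest p-value of the 10. In APOE2 hosts it ran from 7569 to 11760 normalised counts, with a median of 9376. In APOE3 hosts the 5 libraries were at 8544, 4664, 5808, 6167 and 8156. Of the 8 APOE2 libraries, 6 were above the highest APOE3 library, and 3 of the 5 APOE3 libraries were below the lowest APOE2 library, so the groups overlapped. The means were 9342 ± 1246 (SD, n = 8) and 6668 ± 1639 (n = 5), a log2 difference of 0.51 ± 0.13 (SE), with an unadjusted p of 0.000883 and a limma adjusted p of 0.0721. By unadjusted p it was 152nd of the 12403 genes. Its adjusted p was 0.0215 with DESeq2, 0.0224 without APOE3 replicate 1 and 0.0481 without APOE3 replicate 5. Without APOE3 replicates 2 and 3 together the log2 difference was 0.30 with an adjusted p of 0.346.

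Hspd1 encodes HSP60, the chaperonin ring that HSP10 closes. Its APOE2 libraries ran from 4086 to 5213 normalised counts, with a median of 4536. The APOE3 libraries were at 4292, 3096, 3405, 4012 and 3603. The 4 lower APOE3 libraries were below every APOE2 library, and APOE3 replicate 1 lay inside the APOE2 range. The means were 4548 ± 400 (SD, n = 8) and 3681 ± 476 (n = 5), a log2 difference of 0.31 ± 0.10 (SE), with an unadjusted p of 0.00634 and a limma adjusted p of 0.168. Hspe1, Hspd1 and Hsph1 were each above the APOE3 mean log2 value in 8 of 8 APOE2 libraries, as were 9.61% of all tested genes. Groups that did not overlap at all were found for 0.984% of genes and for none of the 10.

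The pair are neighbours. Hspd1 (ENSMUSG00000025980) lies at chr1:55077835-55088243 on the minus strand, and Hspe1 (ENSMUSG00000073676) at chr1:55088132-55091307 on the plus strand, so that they are read away from each other. Their annotated 5′ ends overlap by 112 bases, far from the 3′ ends that the kit reads. A covariate was the mean log2 level of all 15 listed epithelial markers, tested or not. It was 4.62 ± 0.961 in APOE2 hosts (SD, n = 8) and 6.08 ± 0.656 in APOE3 hosts (n = 5). The two-sided exact permutation p was 0.0155 over 1287 divisions. As the covariate differed between the groups, its part and that of host genotype cannot be told apart here. With this covariate, the log2 difference was 0.33 for Hspe1 and 0.22 for Hspd1, with limma adjusted p-values of 0.644 and 0.715. Without the pair of APOE3 libraries richest in Gm42418, that of Hspd1 was 0.20 (adjusted p = 0.486). Over the 13 libraries, centred within genotype, Hspe1 had a Pearson r of -0.71 with Gm42418 (permutation p = 0.0254, 0.28 adjusted over 30 relations) and a Spearman rho of -0.71 (p = 0.0212, 0.201 adjusted). Without APOE3 replicates 2 and 3, which were farthest from the median of Gm42418, r was -0.39. The part of these measures in the difference was not tested further.

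The constitutive HSP70 gene Hspa8 encodes HSC70, which handles newly made proteins and uncoats clathrin vesicles. It (ENSMUSG00000015656) lies at chr9:40800984-40810087 on the plus strand. It ran from 4134 to 6230 normalised counts in APOE2 hosts, with a median of 5416. In APOE3 hosts it was at 3804, 4477, 4089, 6039 and 7458. APOE3 libraries lay both below and above the APOE2 range. Its log2 difference was 0.08 ± 0.14 (SE), with a 95% confidence interval from -0.21 to 0.37 (limma adjusted p = 0.839). Pooled over all its annotated transcripts, its exons overlap the small nucleolar RNAs Snord14c, Snord14d and Snord14e on the same strand, by 86, 86 and 90 bases.

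The HSP110 gene Hsph1 encodes a nucleotide exchange factor that recharges HSP70, and of the 10 its coefficient of variation differed most between the groups. It (ENSMUSG00000029657) lies at chr5:149614287-149636376 on the minus strand. APOE2 libraries ran from 1550 to 2727 normalised counts, with a median of 1847. APOE3 libraries were at 677, 1009, 989, 2018 and 3228. Thus 3 of 5 APOE3 libraries were below the lowest APOE2 library and 1 was above the highest. That coefficient was 22.7% in APOE2 hosts and 66.2% in APOE3 hosts, and this difference in spread was not tested. The log2 difference was 0.50 ± 0.25 (SE), with an unadjusted p of 0.0573 and a limma adjusted p of 0.369. It ran from 0.25 to 0.81 as single libraries were left out, and was 0.21 without APOE3 replicates 2 and 3.

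The inducible HSP70 genes Hspa1a (ENSMUSG00000091971) and Hspa1b (ENSMUSG00000090877) varied more between libraries. Hspa1b ran from 112 to 468 normalised counts in APOE2 hosts, with a median of 211, and was at 159, 121, 198, 265 and 499.8 in APOE3 hosts. The means were 252 ± 126 (SD, n = 8) and 249 ± 150 (n = 5), and the log2 difference was 0.05 ± 0.32 (SE; limma adjusted p = 0.968). The groups overlapped over nearly their whole range.

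Hspa1a ran from 0 to 23.3 normalised counts in APOE2 hosts, with a median of 13.6, and was at 1.05, 0, 47.9, 64.0 and 72.9 in APOE3 hosts. It had no read in APOE2 replicates 2 and 3 and in APOE3 replicate 2, where the limit that a count of 0 allows, 3 reads, is 3.03, 2.76 and 3.39 normalised counts. APOE3 replicates 3, 4 and 5 were above every APOE2 library, and the other two APOE3 libraries were at or near 0. On the log2 scale the difference was -0.90 ± 1.13 (SE), with a 95% confidence interval from -3.24 to 1.44 (limma adjusted p = 0.766). It ran from -1.84 to -0.29 as single libraries were left out, and was -1.63 with edgeR and -1.65 with DESeq2. Its residual SD of 2.40 on the log2 scale was larger than that of 99.9% of tested genes, whose median was 0.383. An exon of Gm20481 overlaps Hspa1a on the opposite strand by 564 bases, and whether reads were counted by strand is not given in the sources used here.

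Dnajb1 encodes HSP40, which brings substrates to HSP70 and starts its ATP hydrolysis. The gene (ENSMUSG00000005483) lies at chr8:83608193-83612653 on the plus strand. It ran from 1100 to 1923 normalised counts in APOE2 hosts, with a median of 1294, and was at 825, 1541, 1158, 1362 and 1717 in APOE3 hosts. Apart from APOE3 replicate 1 at the low end, the APOE3 libraries lay inside the APOE2 range. Its log2 difference was 0.04 ± 0.16 (SE), with a 95% confidence interval from -0.29 to 0.36 (limma adjusted p = 0.943).

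The HSP90 genes encode the cytosolic chaperones that mature kinases and steroid receptors, Hsp90aa1 being the inducible and Hsp90ab1 the constitutive form. Hsp90aa1 (ENSMUSG00000021270) lies at chr12:110690605-110702728 and Hsp90ab1 (ENSMUSG00000023944) at chr17:45567775-45573271, both on the minus strand. Hsp90ab1 ran from 25997 to 31942 normalised counts in APOE2 hosts, with a median of 28456, and was at 25247, 33944, 28840, 27336 and 29904 in APOE3 hosts. The APOE3 libraries surrounded the APOE2 range. Its log2 difference was -0.0035 ± 0.11 (SE), with a 95% confidence interval from -0.24 to 0.23 (limma adjusted p = 0.993). It was among the steadiest genes measured, with a residual SD of 0.132 on the log2 scale, and 1.43% of tested genes had a smaller one. For Hspd1 these values were 0.151 and 3.09%.

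Hsp90aa1 ran from 7325 to 11709 normalised counts in APOE2 hosts, with a median of 8221, and was at 6791, 12076, 10503, 8975 and 8140 in APOE3 hosts. APOE3 replicate 2 was above every APOE2 library, APOE3 replicate 1 was below every one, and the rest overlapped. Its log2 difference was -0.11 ± 0.13 (SE), with a 95% confidence interval from -0.38 to 0.17 (limma adjusted p = 0.762). Centred within genotype over the 13 libraries, Hsp90aa1 had with Gm42418 a Pearson r of 0.79 (permutation p = 0.00661, 0.198 adjusted over 30 relations) and a Spearman rho of 0.74 (p = 0.0098, 0.201 adjusted). Without APOE3 replicates 2 and 3, r was 0.58.

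Hspb1 encodes HSP27, a small heat shock protein that holds unfolded proteins in large oligomers without using ATP. It (ENSMUSG00000004951) lies at chr5:135887919-135889563 on the plus strand. It ran from 18.2 to 73.4 normalised counts in APOE2 hosts, with a median of 49.6, and was at 14.7, 31.6, 68.7, 97.9 and 106 in APOE3 hosts. Of the APOE3 libraries, 1 was below and 2 were above the APOE2 range. Its coefficient of variation was 40.5% in APOE2 hosts and 62.8% in APOE3 hosts, and it was larger in APOE3 hosts for every member. This spread was not tested, and its share over all genes was not counted. Its log2 difference was -0.16 ± 0.45 (SE), with a 95% confidence interval from -1.09 to 0.78 (limma adjusted p = 0.916).

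**Figure D2:**
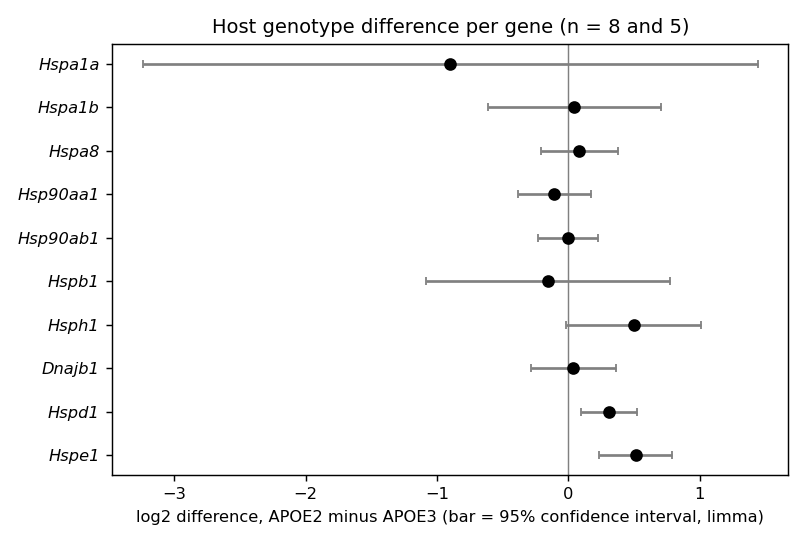
Log2 difference between APOE2 and APOE3 hosts for each heat shock gene (points), with the 95% confidence interval from limma (bars) and a line at 0. The intervals of Hspe1 (0.51) and Hspd1 (0.31) lie above 0 before adjustment, and those of the other genes include 0.

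Some of the members varied together among the libraries, apart from host genotype. Each gene's log2 values were centred within genotype over the 13 libraries, and p-values came from permutation within genotype, adjusted over the 45 pairs. Of these pairs, 32 had a Pearson r above 0, and 4 passed the adjusted test by both Pearson's r and Spearman's rho. The shares of such pairs over all tested genes were not counted, so these counts do not set the members apart from other genes. The 4 pairs were positive and fell into 2 sets, the cytosolic HSP70 system (Hspa8, Hsph1 and Hspa1b) and the HSP90 genes.

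Hspa8 and Hsph1 were the closest pair, with r = 0.93 (permutation p = 0.00011, adjusted 0.00495) and rho = 0.93 (adjusted p = 0.0148). Both were lowest in APOE3 replicate 1, at 3804 and 677 normalised counts, and highest in APOE3 replicate 5, at 7458 and 3228. Without these libraries, the farthest from the median of Hspa8, r was 0.85. Hspa1b followed Hsph1 with r = 0.82 (permutation p = 0.00026, adjusted 0.00585) and rho = 0.80 (adjusted p = 0.0148), and r was 0.67 without APOE2 replicate 7 and APOE3 replicate 5. It followed Hspa8 with r = 0.78 (permutation p = 0.00161, adjusted 0.0241) and rho = 0.76 (adjusted p = 0.0388), and r was 0.61 without the same libraries.

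The HSP90 genes had r = 0.80 (permutation p = 0.00298, adjusted 0.0335) and rho = 0.76 (adjusted p = 0.0403). Without APOE2 replicate 7 and APOE3 replicate 2, the libraries farthest from the median of Hsp90aa1, r was 0.65. The chaperonin pair came close to the threshold: Hspd1 and Hspe1 had r = 0.78 (permutation p = 0.00659, adjusted 0.0514) and rho = 0.80 (adjusted p = 0.0388). Without APOE2 replicate 3 and APOE3 replicate 2, r was 0.57. Across genes of different sets, Hspe1 and Hsp90aa1 had the lowest r, -0.60 (permutation p = 0.0659, adjusted 0.223; rho = -0.51, adjusted p = 0.336), and 0 pairs with a negative r passed.

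The near copies Hspa1a and Hspa1b, with their 250-base windows alike at all but 3 positions, had r = 0.66 (permutation p = 0.0214, adjusted 0.1) and rho = 0.73 (adjusted p = 0.0388). Each had as high an r with Hspb1. Hspa1a and Hspb1 had r = 0.70 (permutation p = 0.0223, adjusted 0.1) and rho = 0.74 (adjusted p = 0.0873). Hspa1b and Hspb1 had r = 0.66 (permutation p = 0.0205, adjusted 0.1) and rho = 0.76 (adjusted p = 0.0388). Hspa1a had no read in 3 libraries, which limits what its correlations can show. Hspb1 and Hsph1 had r = 0.81 (permutation p = 0.00686, adjusted 0.0514) and rho = 0.81 (adjusted p = 0.0508). For Dnajb1 the highest r was 0.73, with Hspa8 (permutation p = 0.0142, adjusted 0.0913; rho = 0.68, adjusted p = 0.0904).

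**Figure D3:**
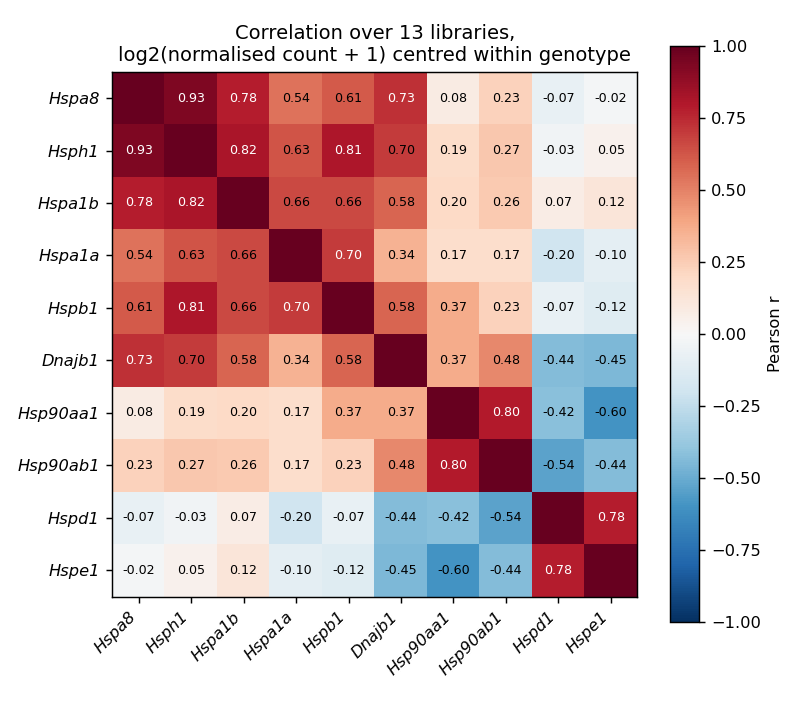
Pearson r of each pair of heat shock genes over the 13 libraries, after log2(normalised count + 1) was centred within genotype, with red for positive and blue for negative values. The highest value is 0.93 for Hspa8 with Hsph1, and the order of the genes was chosen for display after the values were seen.

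**Figure D4:**
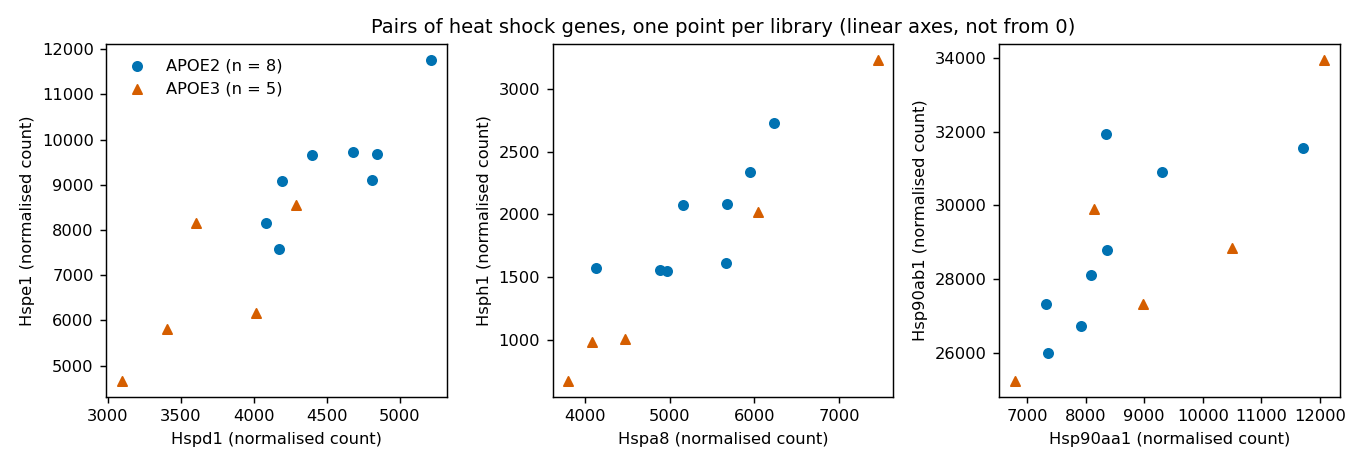
Normalised counts of 3 pairs of heat shock genes on linear axes that do not start at 0, with 1 point per library, APOE2 hosts as circles and APOE3 hosts as triangles. Hspa8 and Hsph1 are both lowest in APOE3 replicate 1 (3804 and 677) and both highest in APOE3 replicate 5 (7458 and 3228).

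Among the 12402 other tested genes, those whose centred values were most like each member's were named by the highest Pearson r, as a description with no test, since so many genes over 13 libraries give high values. For Hspa8 they were Ahsa2, a relative of the HSP90 activator Aha1 (r = 0.95), Hsph1 (0.93) and Zfp407 (0.92). For Hsph1 they were Hspa8 (0.93), Ahsa2 (0.92) and Zfp407 (0.87). The exons of Ahsa2 overlap those of other genes, so its counts are less certain. For Hspa1b they were Dnaja1, a J-domain co-chaperone of HSP70 (0.91), the stress-induced phosphatase gene Dusp1 (0.90) and Swt1 (0.86), with Hsph1 in 7th place. The HSP70 genes and Hsph1 thus had other chaperone genes among their 3 nearest, Hspa1a excepted.

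For Hspa1a the nearest genes were Pogz (0.91), Papss2 (0.87) and Emp2 (0.86). For Hspe1 they were Snrpe, a core protein of the spliceosome (r = 0.96), Mta1 (0.94) and the ribosomal protein gene Rpl30 (0.93), and Hspd1 was 192nd. For Hspd1 they were the splicing factor gene Sf3a3 (0.91), Ccz1 (0.88) and Mtmr9 (0.88), and Hspe1 was 57th. The nearest genes of Hsp90aa1 were Slc25a23 (0.90), Ets2 (0.86) and Ncor1 (0.86), with Hsp90ab1 in 14th place. Those of Hsp90ab1 were Mrfap1 (0.91), Gigyf2 (0.90) and Tacc1 (0.89), with Hsp90aa1 in 25th place. Hspb1 was nearest to Arhgef3 (0.91), Gm42480 (0.87) and Tspan7 (0.86), and Dnajb1 to Gpx8 (0.87), Banp (0.85) and Tead4 (0.83). For these 7 members, no other of the 10 was among the 3 nearest.

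The other genes of the chaperone network were grouped in 8 lists of 76 genes, of which 75 were in the table and 69 passed the filter. Of the 69, 2 rose in APOE2 hosts and 0 fell by the adjusted limma test, which is 2.9% beside 0.79% of all genes. At an unadjusted p under 0.05 there were 14, or 20.3%, beside 14.2% of all genes, and the counts for single lists are to be read against that share. The median log2 difference of the 69 was 0.07.

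Hspa4, a relative of Hsph1 in the HSP110 family that recharges HSP70, rose in APOE2 hosts. It ran from 6873 to 10425 normalised counts there, with a median of 8752, and was at 6441, 4979, 5219, 7076 and 5990 in APOE3 hosts. Of the APOE2 libraries, 6 of 8 were above the highest APOE3 library and 8 of 8 above the APOE3 mean. The log2 difference was 0.54 ± 0.12 (SE; limma adjusted p = 0.0370). It was the 1 called gene of the 6 tested in the list of other HSP70 and HSP110 chaperones, whose median was -0.0084.

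Cdc37l1, a relative of the HSP90 co-chaperone Cdc37 that brings kinases to HSP90, also rose. It ran from 776 to 1023 normalised counts in APOE2 hosts, with a median of 889, and was at 687, 655, 653, 662 and 554 in APOE3 hosts. These groups did not overlap. Its log2 difference was 0.48 ± 0.11 (SE; limma adjusted p = 0.0382). It was the 1 called gene of the 14 HSP90 co-chaperones, whose median was 0.06, and its exons overlap those of Ak3 on the opposite strand. The calls of Hspa4 and Cdc37l1 were lost in 8 and 10 of 13 reruns with 1 library left out, with adjusted p-values up to 0.118 and 0.0866. They were also lost with the epithelial marker covariate (limma adjusted p = 0.412 and 0.378, at log2 differences of 0.49 and 0.46). The same held with the immediate early gene covariate (0.228 for each, at 0.47 and 0.43). These covariate fits called 2 and 1 genes in all, so a lost call there is not particular to these genes. Without APOE3 replicates 2 and 3 the calls were lost too (0.206 and 0.1, at log2 differences of 0.40 and 0.50).

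In the other 6 lists no gene passed the adjusted limma test. Of 4 heat shock transcription factor genes and regulators tested, 2 had an unadjusted p under 0.05 and the median log2 difference was -0.17. Hsf1 itself was at 251 ± 28.8 normalised counts in APOE2 hosts (SD, n = 8) and 245 ± 99.2 in APOE3 hosts (n = 5; limma adjusted p = 0.833). Hsbp1, which encodes a small HSF1-binding protein, had the smallest p of this list, at a log2 difference of 0.35 (limma adjusted p = 0.204).

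Of 10 J-domain genes of the cytosol, 1 had an unadjusted p under 0.05, Dnajc2, at a log2 difference of 0.28 (limma adjusted p = 0.338). Of 9 other HSP70 co-chaperones 2 did, with Bag4, which encodes a nucleotide exchange factor of the BAG family, at -0.41 (adjusted p = 0.282). Of 4 other small heat shock proteins 1 did, Hspb6, at -1.01 (adjusted p = 0.215). The 8 subunit genes of TRiC, the cytosolic chaperonin that folds actin and tubulin, had none. Of these, Tcp1 came nearest, at a log2 difference of 0.14 (adjusted p = 0.632). The median of the 8 was 0.09.

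The other mitochondrial chaperones and proteases are the lists' nearest partners of Hspd1 and Hspe1. Of 14 tested, 9 were above 0, 3 had an unadjusted p under 0.05 and 0 passed, with a median log2 difference of 0.18. The smallest p was that of the inner membrane protease gene Spg7, at a log2 difference of 0.40 (limma adjusted p = 0.171). Hspa9, which encodes mortalin, the HSP70 of the mitochondrial matrix, was at -0.10 (adjusted p = 0.729).

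**Figure D5:**
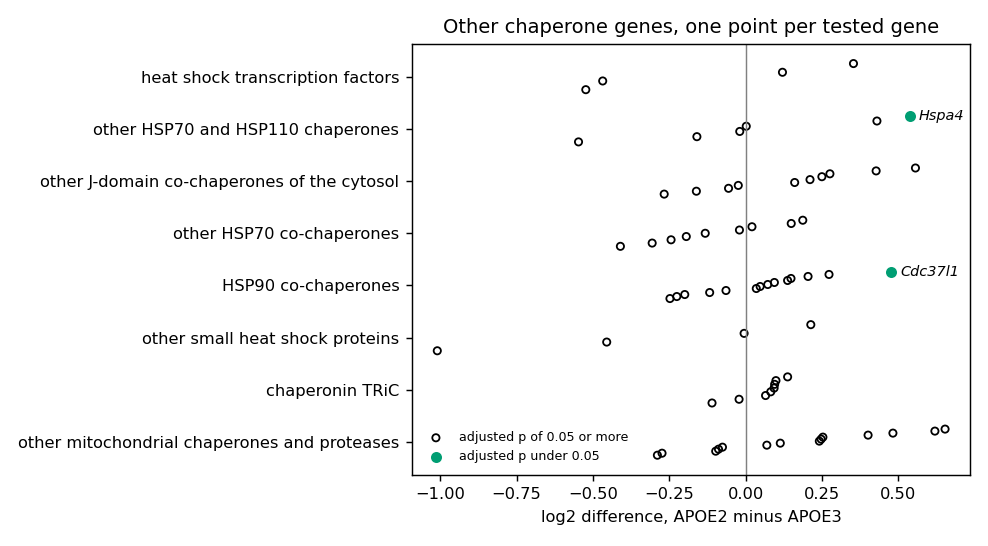
Log2 difference between APOE2 and APOE3 hosts for each of the 69 tested genes in 8 lists of other chaperones, with filled points for an adjusted p under 0.05 by limma. The filled points are Hspa4 (0.54) and Cdc37l1 (0.48).

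Immediate early genes, which respond within minutes to growth factors, stress and tissue digestion, were set beside the members because tissue handling can induce genes of both kinds. Of 14 tested, 1 was above 0 and 13 below, 3 had an unadjusted p under 0.05 and 0 passed the adjusted limma test, with a median log2 difference of -0.31. Fosb had the smallest p, at a log2 difference of -0.90 (adjusted p = 0.0795). The mean log2 level was taken over all 15 listed genes, tested or not. It was 8.12 ± 0.242 in APOE2 hosts (SD, n = 8) and 8.41 ± 0.302 in APOE3 hosts (n = 5; two-sided exact permutation p = 0.0800 over 1287 divisions). Of its relations with the members, that with Hspa8 had the highest r, 0.65 (permutation p = 0.0391, 0.28 adjusted over 30 relations) and rho = 0.66 (p = 0.0388, 0.201 adjusted). Without APOE2 replicate 3 and APOE3 replicate 3 r was 0.84. With this mean as a covariate, the log2 difference was 0.88 for Hsph1 (limma adjusted p = 0.208), 0.44 for Hspe1 (0.284) and 0.29 for Hspd1 (0.385). With the epithelial marker mean as a covariate, that of Hsph1 was 0.88 (adjusted p = 0.459). The lowest adjusted p of the 30 relations between the members and these measures was 0.198.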

How the data were processed

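Per the submitters' processing notes, reads were processed with STAR 2.6.0, featureCounts and DESeq2 1.28.1 on mm10. The strand setting, the annotation and the handling of reads with more than one match are not given in the sources used here. The authors deposited 1 table of normalised counts for 13 libraries, a signal in which whole reads are divided by a factor per library, as the steps of the values show. In each library 100% of values were whole multiples of the value of 1 read within 0.01, so reads were recovered as whole counts and used in edgeR 4.0.16 and DESeq2 1.42.0 as alternatives. In APOE2 replicate 2 the factor, 0.991, is so near 1 that its low values alone do not tell such steps from rounding to whole numbers. Identifiers were matched to symbols, 22649 of 22656.

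Genes with a mean of at least 10 were tested with limma 3.58.1 (R 4.3.3, variance trend) on log2(value + 1), so differences of low genes are understated. P-values were two-sided and adjusted by Benjamini-Hochberg with a threshold of 0.05, and the step was tested on simulated data. The exact and permutation tests (100000 permutations within genotype) were two-sided. P-values set a difference or a correlation against the variation between these libraries, and the labels name no batch. No 2 libraries of a group differed by as little as sampling noise.

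The members and lists were chosen with earlier results of these data known. Genes named were the members, of each other list those called and the one with the smallest p, for each member the 3 with the highest r, and of the marker lists those called or needed to describe a sum. Hsf1, Hspa9 and Scgb3a2 fall outside this rule and were named after their values were seen. Libraries with the same replicate number did not deviate together, with r from -0.09 to 0.03 over the 5 numbers shared by both groups. Alternatives were other pseudocounts, filters, scalings, tools, covariates and left-out libraries. Sequences and positions are from RefSeq GRCm38.p6 and the GRCm38 annotation.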

Additional observations from a re-analysis of the deposited data

Results flagged for a closer look

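Over 20 screens of the 10 genes in both groups, 2 values stood apart from their group, where chance gives about 1 in 20. Hsp90aa1 was at 11709 normalised counts in APOE2 replicate 7, and the next highest APOE2 library was at 9297. That library also had the largest share of Gm42418 reads among APOE2 hosts, 2.17%, and the part of this in the value was not tested. Dnajb1 was at 1923 normalised counts in APOE2 replicate 6, and the next highest APOE2 library was at 1480.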

How the results depend on the processing

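The number of genes past the threshold, 98 with 51 higher, was 9 with 5 higher with no filter on low values, 311 with 153 higher with DESeq2, 2 with 1 higher with the epithelial covariate, 1 with 1 higher with the immediate early covariate, and 1 with 1 higher without APOE3 replicates 2 and 3 (chosen after seeing the data). It was 92 with 38 higher at equal library totals. Without the variance trend limma called 0 genes and 0 higher, with 1599 at an unadjusted p under 0.05, where edgeR called 138. Leaving out 1 library gave 9 to 228 genes with 5 to 131 higher, lowest without APOE3 replicate 3 and highest without APOE3 replicate 1. With the replicate block on replicates 1 to 5, 62 genes passed (29 higher), against 40 (19 higher) for the same libraries without the block. No library correlated best with its own number, so the numbers were not read as pairs.

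The count of heat shock genes past the threshold, 0, was 1 with DESeq2 and 0 to 1 with 1 library left out. The members' median log2 difference was -0.06 to 0.19 with 1 library left out. Hspd1, Hspe1 and Hsph1 stayed above 0 in the 28 reruns of each. The sign of the others, none called, turned as follows. Hspa1a was 0.73 with the epithelial and 0.76 with the immediate early covariate, and Hspb1 0.18 and 0.42. Hspa1b was -0.33 with and without the replicate block and -0.29 without APOE3 replicates 2 and 3, and Hspa8 was -0.0188, -0.0188 and -0.0686. Hsp90aa1 was 0.026 with the epithelial covariate and 0.10 without those libraries. Hsp90ab1 was 0.0167 with TMM, 0.055 with array weights, 0.0021 with edgeR, 0.046 with the epithelial and 0.0011 with the immediate early covariate, and 0.0724 without those libraries. Dnajb1 was -0.0030 at equal totals and -0.10 with and without the replicate block. With 1 library left out, Hspa1b ran from -0.17 to 0.34, Hspa8 from -0.0169 to 0.23, Hsp90ab1 from -0.0524 to 0.0543, Hspb1 from -0.59 to 0.11 and Dnajb1 from -0.12 to 0.14. The causes were not tested. Hspa4 lost its call in 8 of 15 other settings and 8 of 13 reruns without 1 library, Cdc37l1 in 8 and 10. The minimum mean of 50 left out Hspa1a, whose counts limit its precision.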

Other observations

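Within a library, the ratio of Hspe1 to Hspd1 normalised counts was 2.05 ± 0.153 in APOE2 hosts (SD, n = 8) and 1.80 ± 0.322 in APOE3 hosts (n = 5), where the libraries were at 1.99, 1.51, 1.71, 1.54 and 2.26. The size of this ratio also reflects how transcript ends are counted, so it compares libraries and not the amounts of the proteins. The ratio of Hsp90ab1 to Hsp90aa1 was 3.43 ± 0.341 and 3.20 ± 0.467 in the same groups, and that of Hspa8 to Hspa1b was 25.1 ± 10.1 and 23.9 ± 8.13. The ranges of the groups overlapped for the 3 ratios. The 10 genes together held 53424 to 68176 normalised counts in APOE2 hosts and 50354 to 62885 in APOE3 hosts.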
